A study of Mus musculus with 4 samples.

Results

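The gut homing receptors and ligands taken up here were 8 genes. They are the chemokine genes Ccl25 and Ccl28, the chemokine receptor gene Ccr9, the integrin chain genes Itga4 and Itgb7, the selectin ligand gene Selplg, the egress receptor gene S1pr1 and the transcription factor gene Klf2. The members were all probe sets of the array that its annotation assigns to these symbols, which gave 19 of 45037 probe sets and 8 of 18193 genes. Lymphocytes reach the small intestine in steps. Retinoic acid from intestinal dendritic cells makes activated lymphocytes express CCR9 and the integrin of the α4 and β7 chains, which bind CCL25 from the epithelium and MAdCAM-1 on mucosal venules, while CCL28 draws IgA-secreting cells through another receptor. The glycoprotein of Selplg meets selectins on vessel walls, and KLF2 keeps S1pr1 switched on, so that lymphocytes can leave lymphoid tissue toward the sphingosine 1-phosphate of blood and lymph.

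RNA of C57BL/6 mice was measured on 4 Affymetrix arrays, 1 for each group. The groups were Peyer's patch (PP) cells and intestinal epithelial cells (IECs) of germ-free (GF) mice, and the same cells of GF mice that had carried Lactobacillus NK318.1 as their only bacterium for 2 weeks after a dose of 100000000 bacteria (here NK318.1 mice). PPs are the lymphoid nodules of the small intestinal wall, and a figure legend of the study calls these epithelial cells ileal and the samples pooled (n = 6). The strain and the housing in vinyl isolators were common to all 4 groups. The methods speak in general of mice of matched age and gender, and give 4 weeks as the age of mice taken from an isolator to receive bacteria, without naming these pools. With 1 pooled array for each group there was no replicate within a tissue, so each difference is a ratio between 2 pools of mice and has no test. Values are MAS5 signals, a linear intensity for each probe set. Signals under a floor of 15.5, which about 40% of probe sets did not reach, were raised to it for ratios, and a ratio against such a signal is given as a bound. A gene was measured in a comparison if either array lay above the floor, and 2-fold, the limit in the methods of the study, was used for counts.

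Marker sums set the PP arrays apart from the epithelial arrays. The B cell markers had a summed signal of 14690 and 14179 in the GF and NK318.1 PP against 202 and 184 in IECs, and the epithelial markers 45303 and 37943 in IECs against 196 and 185 in PP. The NK318.1 epithelial array stood apart from its GF partner. Stomach markers summed to 30117 on it and 374 on the GF array and acinar markers of the pancreas to 9005 and 1149. Markers of the ileum summed to 4910 against 8423, with Fabp6, the ileal bile acid binding protein, at 718 against 4002 (log2 ratio −2.48) and Slc10a2, the ileal bile acid transporter, at 18.6 on the GF array and under the floor on the NK318.1 array. The 3′ probe set of β-actin stood at 4.10 times its 5′ probe set on it, against 2.73 on the GF array and 1.60 and 1.74 on the PP arrays. In both tissues the sex-linked gene Xist was high on the NK318.1 arrays (4586 and 4889) and low on the GF arrays (21.7 and 46.7). The Y-linked genes went the other way. Eif2s3y (300 and 147 in GF PP and IECs), Kdm5d (165 and 90.6) and Uty (38.1 and 39.9) were under the floor on both NK318.1 arrays. Although the methods speak of matched mice, the sex of the mice and colonization thus cannot be told apart in any ratio of NK318.1 to GF.

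**Figure D1:**
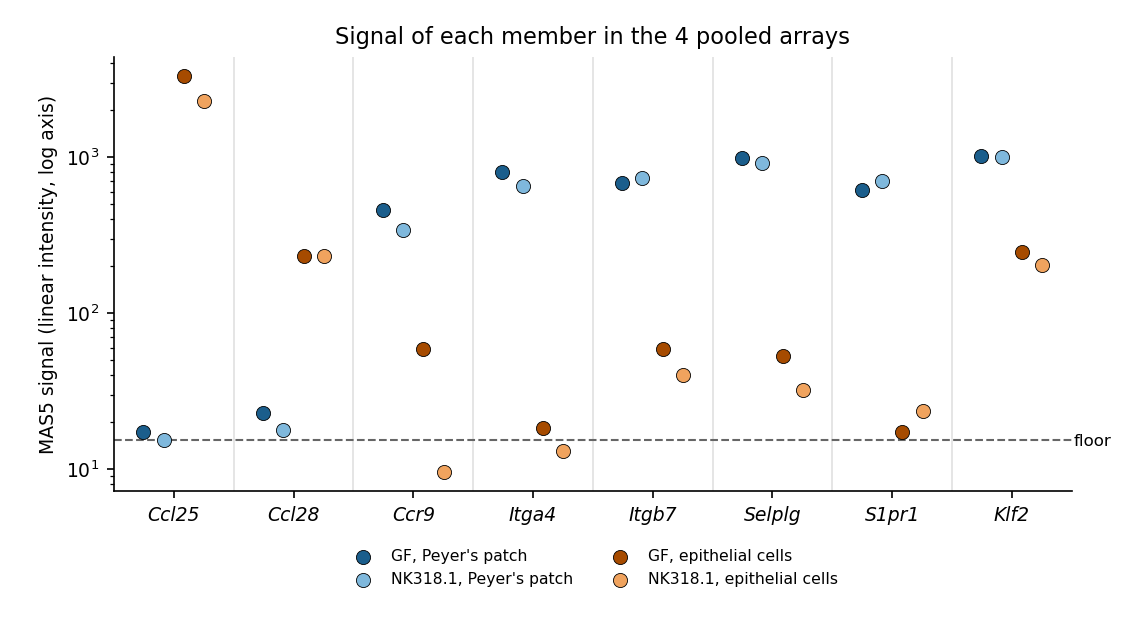
MAS5 signal of the brightest probe set of each of the 8 members (log axis) on the 4 arrays, 1 point for each pooled array, with the floor of 15.5 as a dashed line. Ccl25 and Ccl28 lie highest on both epithelial arrays and the other 6 members on both PP arrays. Heights cannot be compared between genes.

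By their brightest probe sets the 2 ligand genes were epithelial on these arrays. Between GF and NK318.1 mice Ccl25 was somewhat lower and Ccl28 almost level in IECs. Ccl25, the chemokine of small intestinal enterocytes that CCR9 binds, gave a signal of 3286 in GF and 2275 in NK318.1 IECs, and of 17.4 and 15.4 in PP. Both epithelial signals lay far above both PP signals, of which the NK318.1 one was under the floor (at least 1.12-fold lower than GF). The ratio of tissues was 189-fold in GF mice and at least 147-fold in NK318.1 mice, and only 19 of 14036 measured genes were as far toward the epithelium in GF mice. In IECs the NK318.1 signal of Ccl25 was 1.44-fold lower (log2 ratio −0.53), a ratio that 8.32% of measured genes reached or passed in this direction. A second Ccl25 probe set gave 47.0 and 43.3 in IECs (log2 ratio −0.12), and 22.6 and 23.9 in PP.

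Ccl28, a chemokine of mucosal epithelia that CCR10 and CCR3 bind, had a signal of 232 and 231 in GF and NK318.1 IECs and 23.1 and 17.8 in PP. The epithelial signal was 10.0-fold higher than that of PP in GF mice and 13.0-fold in NK318.1 mice. The ratio of NK318.1 to GF was −0.0046 on the log2 scale in IECs and −0.38 in PP, where both signals were close to the floor. A second probe set gave 50.1 and 41.4 in IECs (−0.28) and 25.5 and 23.9 in PP (−0.090). By it the epithelial signal was only 1.97-fold higher than that of PP in GF mice and 1.73-fold in NK318.1 mice. The third lay under the floor on all 4 arrays. Of the receptors of CCL28, Ccr10 had low signals between 21.4 and 29.7 on the 4 arrays, and Ccr3 was under the floor on all of them.

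The start regions of both ligands and of Ccr9 are shown because these genes had opposite tissue patterns and form the chemokine side of homing to the small intestine. The sequences are from RefSeq on GRCm38.p6, each running 5′ to 3′ from 250 bases before to 50 bases after an annotated start, on the + strand. Capitals mark the letters CACCC, the box that KLF factors bind, or TTTATG, a site of the kind that CDX factors bind, on either strand. The windows are chr8:4324960-4325259 and chr8:4349338-4349637 for 2 starts of Ccl25, chr13:119623569-119623868 for Ccl28 and chr9:123766961-123767260 for Ccr9.
Ccl25, first start: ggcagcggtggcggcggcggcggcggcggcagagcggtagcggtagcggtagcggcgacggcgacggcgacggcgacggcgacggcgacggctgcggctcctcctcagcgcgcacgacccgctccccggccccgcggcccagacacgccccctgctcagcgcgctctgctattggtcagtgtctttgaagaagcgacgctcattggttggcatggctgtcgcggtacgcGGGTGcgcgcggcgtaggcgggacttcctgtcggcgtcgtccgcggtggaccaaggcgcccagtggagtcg
Ccl25, second start: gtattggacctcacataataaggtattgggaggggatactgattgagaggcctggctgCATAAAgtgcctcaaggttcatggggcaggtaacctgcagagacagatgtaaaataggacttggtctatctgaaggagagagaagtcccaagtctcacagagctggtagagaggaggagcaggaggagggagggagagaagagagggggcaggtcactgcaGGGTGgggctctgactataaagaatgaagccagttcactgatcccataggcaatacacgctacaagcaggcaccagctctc
Ccl28: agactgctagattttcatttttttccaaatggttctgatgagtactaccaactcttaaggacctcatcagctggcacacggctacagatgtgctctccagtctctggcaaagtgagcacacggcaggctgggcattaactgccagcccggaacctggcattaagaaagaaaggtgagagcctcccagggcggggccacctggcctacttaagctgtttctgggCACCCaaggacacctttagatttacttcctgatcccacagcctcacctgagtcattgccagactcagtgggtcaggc
Ccr9: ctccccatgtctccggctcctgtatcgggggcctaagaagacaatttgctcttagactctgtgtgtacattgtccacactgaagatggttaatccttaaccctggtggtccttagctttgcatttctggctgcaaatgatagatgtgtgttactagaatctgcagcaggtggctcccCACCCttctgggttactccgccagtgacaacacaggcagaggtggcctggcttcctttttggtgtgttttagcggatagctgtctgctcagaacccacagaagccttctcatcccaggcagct

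TTTATG was present once in the second window of Ccl25, as CATAAA from base 59 of the window, and not in the first window or in those of Ccl28, Ccr9, Itga4, Itgb7 and Klf2. Of 32851 promoter windows of the same length, 11.9% held it. CACCC was present in all 7 windows of these 6 members, from 1 time each in both Ccl25 windows, Ccl28, Ccr9 and Klf2 to 4 times each in Itga4 and Itgb7. Since 57.5% of all windows held it, its presence sets the members little apart. A match is a string of letters and was not tested as a binding site. No window was printed for Selplg and S1pr1.

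Ccr9 was the member with the widest ratio between NK318.1 and GF mice, and this lay in IECs. The signal of the receptor gene was 59.0 in GF and 9.66 in NK318.1 IECs by its brightest probe set, a fold of at least 3.80 lower with the NK318.1 signal under the floor (log2 ratio −1.93 or lower). Only 33 of 13874 measured genes, or 0.238%, were as low. A second probe set had 39.5 and 17.9, which is 2.21-fold lower, with both signals above the floor. The other 3 of its 5 probe sets were under the floor on both epithelial arrays and gave no ratio. Ccr9 had in PP 459 in GF and 343 in NK318.1 mice (log2 ratio −0.42), and 2 further probe sets gave −0.26 and −0.42. The 2 dimmest gave 0.56 and 0.084, with signals of 18.2 and 27.0 and of 14.1 and 16.4, the first of the last pair under the floor. The brightest probe set is of a type (_x_at) that Affymetrix marks as able to bind unrelated sequence. The second and the third are of a type (_a_at) marked as able to bind several transcripts of the same gene. This left the 2 dimmest as the unmarked ones of Ccr9.

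**Figure D2:**
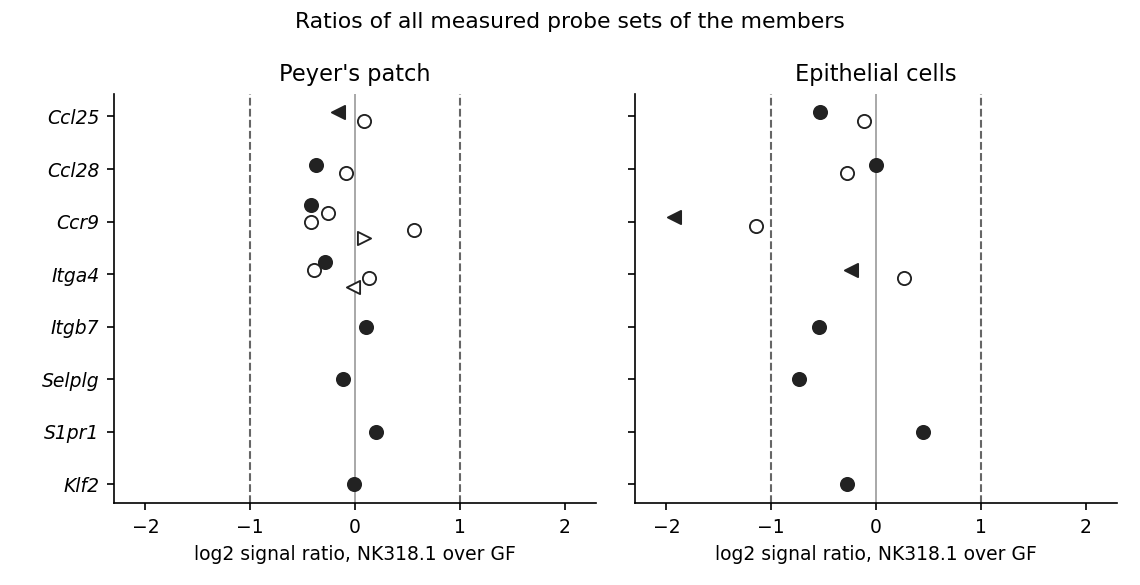
Log2 signal ratio of NK318.1 over GF of all measured probe sets of the members in each tissue, 17 in PP and 12 in IECs. Filled symbols are the brightest probe set of a gene, triangles are bounds pointing away from 0 and dashed lines mark 2-fold. Of the symbols only 2, both of Ccr9 in IECs, lie beyond 2-fold.

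The integrin genes were far higher in PP than in IECs, and their PP signals were within 2-fold between GF and NK318.1 mice. Itga4 encodes the α4 chain, and Itgb7 the β7 chain, which pairs with α4 to bind MAdCAM-1 or with αE to bind E-cadherin of the epithelium. Itga4 had 803 in GF and 656 in NK318.1 PP (log2 ratio −0.29), and 18.4 and 13.1 in IECs. The NK318.1 epithelial signal was under the floor, so the ratio there was a bound of −0.24 or lower, and a dimmer probe set pointed the other way with 16.8 and 20.3 (0.27). In PP that dimmer probe set gave 0.13 (55.6 and 60.8), another −0.40 (310 and 235) and a further one, at the floor, −0.023 (15.8 and 15.2). The sign of the Itga4 ratio thus depended on the probe set in both tissues. Itgb7 had 679 and 730 in PP (0.11) and 58.6 and 40.1 in IECs (−0.55), where 7.86% of measured genes were as low. By the brightest probe sets it was the only member whose ratio had opposite signs in the 2 tissues, and that difference had no test.

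The partners of these chains had ratios of different size. Itgae, which encodes αE of intraepithelial lymphocytes, had 190 in GF and 42.7 in NK318.1 IECs, a ratio of −2.15 that another probe set gave as −1.49. It was level in PP with 320 and 322. Cdh1, the gene of E-cadherin, had 1344 and 1182 in IECs (−0.19). Madcam1, the vascular ligand of the α4 and β7 pair, had 65.5 and 69.7 in PP (0.089), and Vcam1, the other ligand of α4, 566 and 431 (−0.39), with −0.96 and −0.58 from 2 other probe sets.

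Selplg, which encodes the P-selectin ligand of leukocytes, had 989 in GF and 914 in NK318.1 PP (−0.11). In IECs it had 53.1 and 32.0, a 1.66-fold lower signal (−0.73) that 3.81% of measured genes reached or passed. After Ccr9 this was the second lowest ratio of the members in that tissue. Selp, the gene of P-selectin itself, had 32.2 and 24.4 in PP. Among the enzymes that decorate selectin ligands, Fut7 had ratios of 0.32 in PP and 0.14 in IECs and Gcnt1 −0.27 in PP.

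S1pr1 and Klf2 were within 2-fold between NK318.1 and GF mice in both tissues. S1pr1, the receptor that lets lymphocytes leave, had 614 in GF and 705 in NK318.1 PP (0.20), where 11.8% of measured genes were as high. In IECs it had 17.3 and 23.6 (0.45), both close to the floor. By the brightest probe sets S1pr1 was the only member with a higher signal in NK318.1 mice in both tissues. A dimmer probe set of Itga4 was also higher in both (0.13 and 0.27). Klf2 had 1011 and 1001 in PP (−0.015) and 246 and 203 in IECs (−0.28). Its tissue ratio of 4.11-fold in GF and 4.94-fold in NK318.1 mice was the smallest of the 8 in both. Of the 16 listed genes of this route measured in PP, 0 were 2-fold higher or lower, where 0.149% and 0.573% of all measured genes were. In IECs 0 of 15 were 2-fold higher and 1 lower, where the shares of all genes were 2.63% and 1.54%. S1pr4, another lymphocyte receptor, had log2 ratios of 0.15 in PP and −0.43 in IECs, and S1pr2, which holds B cells in follicles, 0.45 and −0.23. The transporter gene Spns2 had −0.28 and −0.26, and Foxo1, which acts upstream of Klf2, −0.14 in PP and −0.00045 in IECs. The gene that was 2-fold lower in IECs was Cd69, whose product pulls S1PR1 from the cell surface. It had 440 and 274 in PP (−0.69), and in IECs it was at least 3.12-fold lower (48.4 and 5.51).

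Counted together, all 8 members were measured in every comparison through at least 1 probe set, and 2 of the 19 probe sets were under the floor on all 4 arrays. Among the members in PP, 0 of 8 were 2-fold higher and 0 of 8 were 2-fold lower in NK318.1 mice, against 0.149% and 0.573% of the 12736 measured genes. Of the members 2 lay above 0 and 6 below, where 42.5% of all genes lay above 0. Their median log2 ratio was −0.14, with −0.033 over all genes, and it shrank to −0.048 with the mean over probe sets. In IECs 0 of 8 were 2-fold higher and 1 of 8, Ccr9, 2-fold lower, against 2.63% and 1.54% of 13874 genes. There 1 lay above 0 and 7 below, where 52.4% of all genes lay above 0, with a median of −0.41 against 0.019 over all genes. Ccr9 in IECs alone passed the limit, and the sign of Klf2 in PP and of Ccl28 in IECs rests on ratios of about 0. By probe set, 0 of 17 were 2-fold higher and 0 of 17 lower in PP (0.131% and 0.409% of all measured probe sets). In IECs 0 of 12 were higher and 2 of 12 lower (2.57% and 1.35%). The central 95% of all gene ratios ran from −0.60 to 0.41 in PP and from −0.86 to 1.03 in IECs. Every PP ratio of a member lay inside the first range, and in IECs Ccr9 lay outside the second and the other 7 inside.

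Between tissues the members were far apart. In GF mice 6 of 8 were at least 2-fold higher in PP than in IECs, where the background was 18.5% of 14036 genes, and 2 of 8, the ligands, at least 2-fold lower, with a background of 16.0%. In NK318.1 mice the counts were the same, 6 and 2, against 16.8% and 18.4% of 14030 genes. In order of the tissue ratio in GF mice, Itga4 was 43.8-fold and S1pr1 35.4-fold higher in PP, Selplg 18.6-fold, Itgb7 11.6-fold, Ccr9 7.78-fold and Klf2 4.11-fold. In NK318.1 mice the order was Itga4 with at least 42.3-fold, S1pr1 with 29.9-fold, Selplg with 28.6-fold, Ccr9 with at least 22.1-fold, Itgb7 with 18.2-fold and Klf2. Ccr9 thus stood before Itgb7 in NK318.1 mice and after it in GF mice. With 1 array each, no pair of neighbours in these orders can be said to differ.

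Markers of cytotoxic and intraepithelial lymphocytes, the cells that carry Ccr9, Itgb7 and Itgae inside the epithelium, were lower on the NK318.1 epithelial array. Of 10 measured markers 7 were at least 2-fold lower and 10 lay below 0, with a median log2 ratio of −1.86. Of all measured genes in IECs, 1.54% were at least 2-fold lower and 52.4% lay above 0. The summed signal of these markers was 4045 in GF and 321 in NK318.1 IECs. Lowest were Gzmb (689 and 28.0), a granzyme gene, and Gzma (2734 and 128). Klrd1, Nkg7 and Cd8b1 were under the floor on the NK318.1 array. On the PP arrays the same list had a median of −0.084 and sums of 3754 and 3564. Gzma alone was 2-fold lower there (347 and 154), as were 0.573% of all measured genes. In IECs the T cell markers summed to 741 in GF and 450 in NK318.1 mice, with a median of −0.51. Of 9 measured there, 2 were at least 2-fold lower, Cd3g and Cd3d, against 1.54% of all measured genes. Cd3e went the other way in IECs, with 230 and 273. On the epithelial arrays B cell markers had a median of −0.029. Endothelial markers, of cells that also use S1pr1 and Klf2, had 0.11 there, with summed signals of 296 and 319. Epithelial markers had a median of −0.24 in IECs and ran from −0.65 for Vil1 to 0.43 for Krt18. Only Vil1 and Krt20 (−0.59) among them lay below the −0.53 of Ccl25. The T cell markers had in PP a median of 0.26 and summed signals of 7456 and 8910. Of these markers 10 of 10 lay above 0, where 42.5% of all measured genes did. The B cell markers had a median of −0.14 in PP and the plasma cell markers −0.34. The part of these cells, of the stomach and pancreas markers and of the 3′ to 5′ ratios in the ratios of the members was not tested. Fewer cells of a type and less RNA in each cannot be told apart in these pools.

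**Figure D3:**
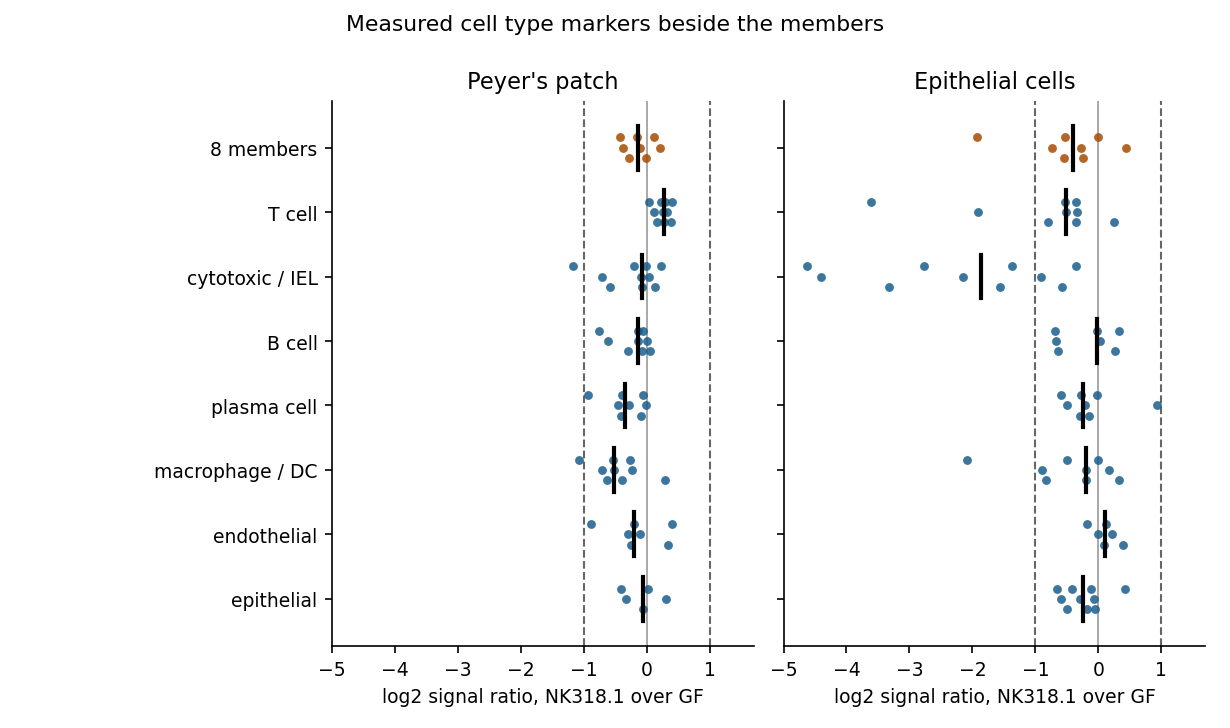
Log2 signal ratio of NK318.1 over GF for the 8 members (orange) and for the measured genes of 7 marker lists (blue) in each tissue, 1 point for each gene by its brightest probe set, with signals under the floor raised to it. Black bars are medians and dashed lines mark 2-fold. In IECs the cytotoxic and intraepithelial lymphocyte (IEL) markers have a median of −1.86 and the members −0.41 (DC, dendritic cell).

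The genes with signals most like those of the members on the 4 arrays were found by the distance between log2 signals. Signals under the floor were raised to it, and each gene was then centred on its own mean. Nearest to Ccr9 were Cd69, an activation marker of lymphocytes, at a distance of 0.28, Cd8a, a coreceptor chain of cytotoxic T cells, at 0.29 and Gpr171 at 0.46, and these 3 were the only ones of 14349 genes within 0.5. Cd8a had 534, 502, 79.3 and 17.9 in GF and NK318.1 PP and GF and NK318.1 IECs. For the other members such neighbours were many, from 16 genes within 0.5 for Ccl25 to 400 for Klf2. Nearest to Ccl25 were Arg2, Maoa and Otc, which encode enzymes of arginine, amine and urea cycle metabolism, at 0.19 to 0.20. Nearest to Ccl28 were Chpt1, Cracdl and Gsto1. Itgb7 had Parvg, Malt1 and Stat4 and Selplg had Nfatc1, Rgs10 and Cd72, all genes known from leukocytes. Itga4 had AI662270, Mndal and Pde4b, S1pr1 had BC035044, Sh3kbp1 and AI467606, and Klf2 had Smg1, H2-D1 and Zdhhc17. Genes that were both under the floor on an array counted as equal there, as Ccr9, Cd69 and Gpr171 did on the NK318.1 epithelial array. Arg2, Maoa and Otc were under the floor on both PP arrays, and Ccl25 on that of NK318.1 mice. These distances rest on 4 arrays from 2 tissues, and part of the likeness comes from the floor.

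Around the members, 90 genes of adhesion, chemokines and their receptors, sphingosine 1-phosphate egress, retinoic acid and selectin ligand glycosylation were listed, of which 85 were matched to the array. In PP 1 of 72 measured was at least 2-fold higher and 3 were lower, with a median of −0.13, where 0.149% and 0.573% of all measured genes passed these limits. Glycam1, the L-selectin ligand of high endothelial venules, was higher (565 and 2457, log2 ratio 2.12), and Cxcl10, an interferon-induced chemokine (73.9 and 33.5, −1.14), Aldh1a1, a retinaldehyde dehydrogenase (32.9 in GF mice and under the floor in NK318.1 mice, −1.08 or lower), and Fn1, fibronectin (107 and 52.9, −1.02), were lower. Second highest after Glycam1 was Cxcr6, a receptor of tissue lymphocytes, at 0.63. Aldh1a2, the retinaldehyde dehydrogenase of intestinal dendritic cells, had 122 and 74.1 (−0.72). Macrophage and dendritic cell markers had a median of −0.53 in PP, with 8 of 9 measured below 0. The part of these cells in the ratio of Aldh1a2 was not tested. The retinoic acid group as a whole had a median of −0.092 over 10 measured genes, and the receptors Rara and Rarg had −0.073 and −0.30.

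In IECs 4 of 68 measured genes of this list were at least 2-fold higher and 4 lower, with a median of −0.16, where the shares of all genes were 2.63% and 1.54%. Lower were Ccl5, a chemokine of cytotoxic lymphocytes (1408 and 126, −3.49), Itgae (−2.15), Cd69 (−1.64 or lower) and Itgb2 (61.5 and 24.5, −1.33), the β2 chain of leukocyte integrins. Higher were the stromal chemokine genes Cxcl12 (at least 2.82-fold) and Ccl11 (at least 2.57-fold), Fn1 (45.2 and 95.5, 1.08) and Cd34, a marker of vessels and stromal cells (at least 2.01-fold). The groups themselves had medians from −0.29 for chemokine receptors to 0.019 for selectin ligand glycosylation. The retinoic acid group had −0.28 over 11 genes, with 0 of them 2-fold apart. Of its epithelial members, Rbp2, the retinol binding protein of enterocytes, had 1683 and 957 (−0.81) and Aldh1a1 2881 and 2438 (−0.24).

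**Figure D4:**
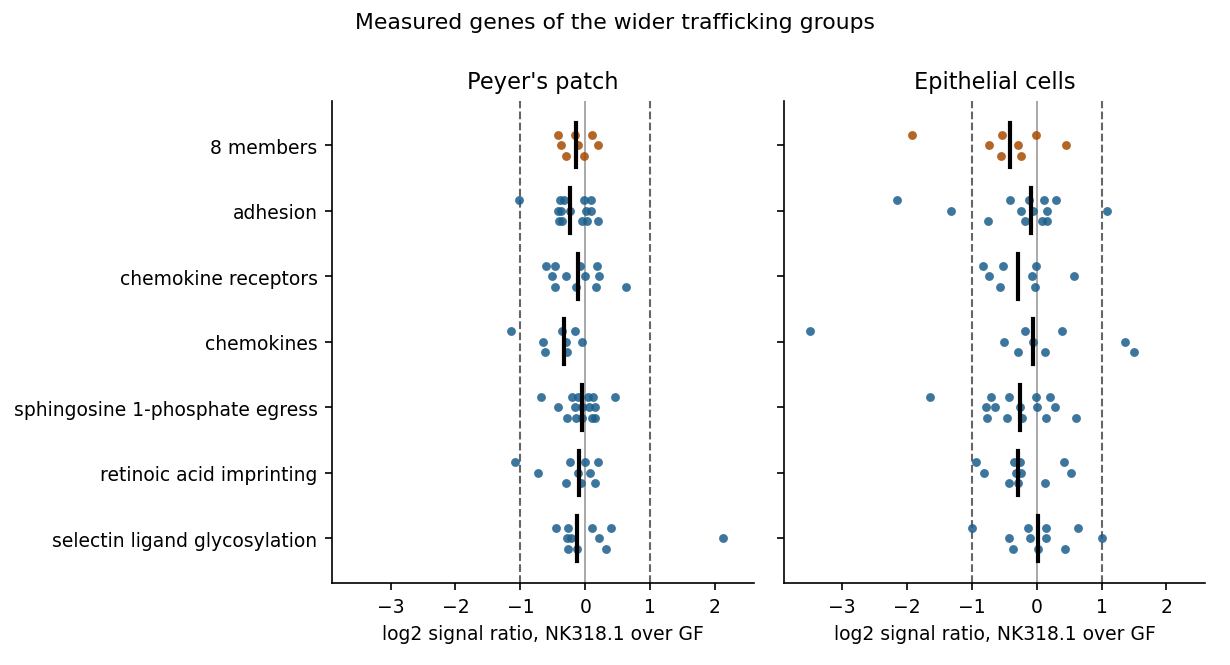
Log2 signal ratio of NK318.1 over GF for the 8 members (orange) and the measured genes of 6 trafficking groups (blue) in each tissue, 1 point for each gene, with signals under the floor raised to it. Black bars are medians and dashed lines mark 2-fold. In PP 4 genes of the groups lie beyond 2-fold and in IECs 8.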

How the data were processed

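RNA of 4 pools was hybridized to 1 Affymetrix array each, and per the labels the deposited linear intensity for each probe set is a MAS5 signal made by the authors. For MAS5, no version and no settings are given in the sources used here. As a test, the methods name limma with an adjusted p-value, which 1 array for each group cannot give within a tissue, so the 2-fold limit was used alone. A fit of both tissues together, which would leave 1 residual degree of freedom, was not run. Controls (64 probe sets) were set aside. The 9160 probe sets with no gene in the platform's annotation and the 932 with several genes were left out of all gene counts. They were kept for the floor and for the counts over all probe sets. Symbols were updated through RefSeq gene IDs. The probe set with the highest mean log2 signal stood for a gene, and the 40th percentile of intensity, as its median across the 4 arrays, set the floor. The ratio function was tested on simulated data. Members, lists and rules were chosen with earlier results of these data known. Named genes are the members, listed genes 2-fold apart or highest and lowest, and the 3 nearest by signal. The partners Ccr10, Ccr3, Cdh1, Madcam1, Vcam1, Selp, Fut7, Gcnt1, S1pr4, S1pr2, Spns2, Foxo1, Aldh1a2, Rara, Rarg and Rbp2 were added after their values were seen. The marker lists for macrophages and dendritic cells, proximal small intestine and ileum had median log2 ratios of −0.20, −0.069 and −0.18 in IECs, the last over 4 genes of which Fabp6 was 5.58-fold lower. For PP the first had −0.53, the second 0.22 over 3 genes and the third no measured gene. Alternatives were median centring, quantile normalization, other floors, other fold limits and other choices among probe sets. Python 3.11.15, numpy 2.4.6, pandas 2.3.3 and matplotlib 3.10.9 were used.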

Additional observations from a re-analysis of the deposited data

Results flagged for a closer look

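For some genes the ratio of NK318.1 to GF had opposite signs in PP and in IECs. This difference between tissues was not tested, since each ratio rests on 2 arrays. Among the members, by their brightest probe sets, this was Itgb7, with 0.11 and −0.55, a difference of −0.65 on the log2 scale. Of the genes of the wider list at least 2-fold apart in either tissue, Itgae had 0.010 and −2.15 (difference −2.16) and Itgb2 0.088 and −1.33 (−1.41). Fn1 had −1.02 and 1.08 (2.10) and Cxcl12 −0.053 and a bound of at least 2.82-fold higher (1.55). The PP ratios of Itgae, Itgb2 and Cxcl12 were close to 0, so their signs there say little. Listed genes within 2-fold in both tissues also had opposite signs, such as Plpp3 with −0.42 and 0.60.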

How the results depend on the processing

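No paired analysis was possible because the 2 groups of a tissue share only 1 replicate number, and the spread between mice is unknown. Tissue as a block across both tissues was not run. A ratio or median counted as kept when its sign and its side of the 2-fold limit stayed, and a count when it stayed equal or within 1.5-fold. Of 40 recomputed counts of members 35 were kept. Most of these were counts of 0 that stayed 0, and all 5 changes fell on the count of members 2-fold lower in IECs. All 16 medians kept their sign, but that of PP shrank from −0.14 to −0.048 with the mean over probe sets, −0.052 with the second-brightest probe set and −0.064 with the floor at the 60th percentile or without marked probe sets, close to the −0.033 of all genes. In IECs the medians ran from −0.52 to −0.28. The count of members at least 2-fold lower in IECs, 1 with the settings used, was 0 with the floor at the 60th percentile, where Ccr9 had −0.66, 0 with the mean over probe sets (−0.31), and 0 without _s_at, _x_at and _a_at probe sets, since Ccr9 was then not measured there. At 4-fold it was also 0 (0.209% of genes), and at 1.5-fold it was 2 (6.80% of genes), with Selplg. With the second-brightest probe set, an alternative chosen after seeing the data, Ccr9 had −1.15. Of 120 ratios of members 115 were kept, but Itgb7, Selplg, S1pr1 and Klf2 have 1 probe set each. Their ratios, also those between tissues, could not change with the choice among probe sets. A ratio that an alternative left unmeasured was not counted. Of the 5 ratios not kept, Ccr9 in IECs gave 2 (above), and 3 changed sign in PP, all from within 2-fold. These 3 were Ccr9 to 0.56 without the marked probe sets, Ccl25 to 0.082 with its second probe set and Klf2 to 0.020 after quantile normalization. Of 112 tissue ratios 110 were kept, and Ccr9 without the marked probe sets had bounds of 0.23 in GF and 0.80 in NK318.1 mice.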
